A study of Homo sapiens with 8 samples.

Results

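Tubulins are the subunits of microtubules, and 10 of their genes were followed here through mRNA-seq and ribosome profiling of cells under oxidative stress. The genes were chosen by symbol from the 19964 genes with a coding transcript: 3 α-tubulins (TUBA1A, TUBA1B, TUBA1C), 6 β-tubulins (TUBB, TUBB2A, TUBB2B, TUBB3, TUBB4B, TUBB6) and 1 γ-tubulin (TUBG1). All 10 had enough reads to be tested in every comparison. The cells were HEK293T, a human embryonic kidney line that carries the SV40 large T antigen, and they received 40 µM sodium arsenite, a thiol-binding oxidative stressor, or vehicle (control) for 30 min. Cycloheximide, which holds ribosomes on the mRNA, was in the wash buffer of all cultures. Each treatment was profiled by ribo-seq, which sequences the stretches of mRNA that a ribosome shields from RNase I, and by mRNA-seq of fragmented mRNA from the same lysates, in 2 biological replicates, which gave 8 libraries. The ribo-seq libraries held 1023935 to 7270196 reads on the transcripts used and the mRNA-seq libraries 3993293 to 21724945, with replicate 1 the shallower one throughout. The cells had the neurofilament transcripts typical of HEK293 lines, with NEFM at 41.1 and 115 cpm (counts scaled to a common library size) and VIM, encoding vimentin, at 269 and 343 cpm in the control mRNA-seq replicates, and with PAX2 at 1.5 and 3.65 cpm and KRT8 at 10.5 and 6.53 cpm. Of the markers of other cell types, the haemoglobin genes HBB and HBG1 had 0 reads in all 4 mRNA-seq libraries, PTPRC, LYZ, ALB, APOA1, DES and COL1A2 lay between 0 and 0.823 cpm, and COL1A1, a fibroblast collagen gene, was at 11.0 and 9.83 cpm.

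An α- and a β-tubulin form the heterodimer that polymerizes into the microtubule wall, and γ-tubulin in its ring complex is the template from which microtubules grow. The α- and β-isotypes are encoded by separate genes whose coding sequences are very similar and which are used to different extents in different tissues. Tubulin mRNAs are also known for autoregulation, in which excess soluble tubulin triggers decay of tubulin mRNAs while they are being translated, through a factor (TTC5) that recognizes the first residues of the nascent chain.

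This similarity bears on the counts. Only reads that aligned to the transcripts of a single gene were kept, and only in the sense direction, so that each gene is represented by the sequence that tells it apart from its paralogs, and its count understates its mRNA by an amount that differs between genes. In control mRNA-seq, the coding sequence (CDS) held a median of 55.0% of a tubulin transcript's reads in replicate 1 and 41.0% in replicate 2. Over all genes with a mean of at least 10 mRNA-seq reads the medians were 66.7% and 55.9%. The lowest CDS shares were those of TUBA1B (22.2% and 19.3%), TUBB2B (19.1% and 24.4%) and TUBA1A (26.4% and 27.7%), and the highest were those of TUBB4B (86.5% and 71.0%) and TUBB3 (81.8% and 67.1%). TUBB lay at 85.8% in replicate 1 and 58.8% in replicate 2. How much of a low share comes from discarded paralogous reads was not tested. Transcript lengths were not used, so read counts below are compared between libraries for a given gene, not between genes.

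**Figure D1:**
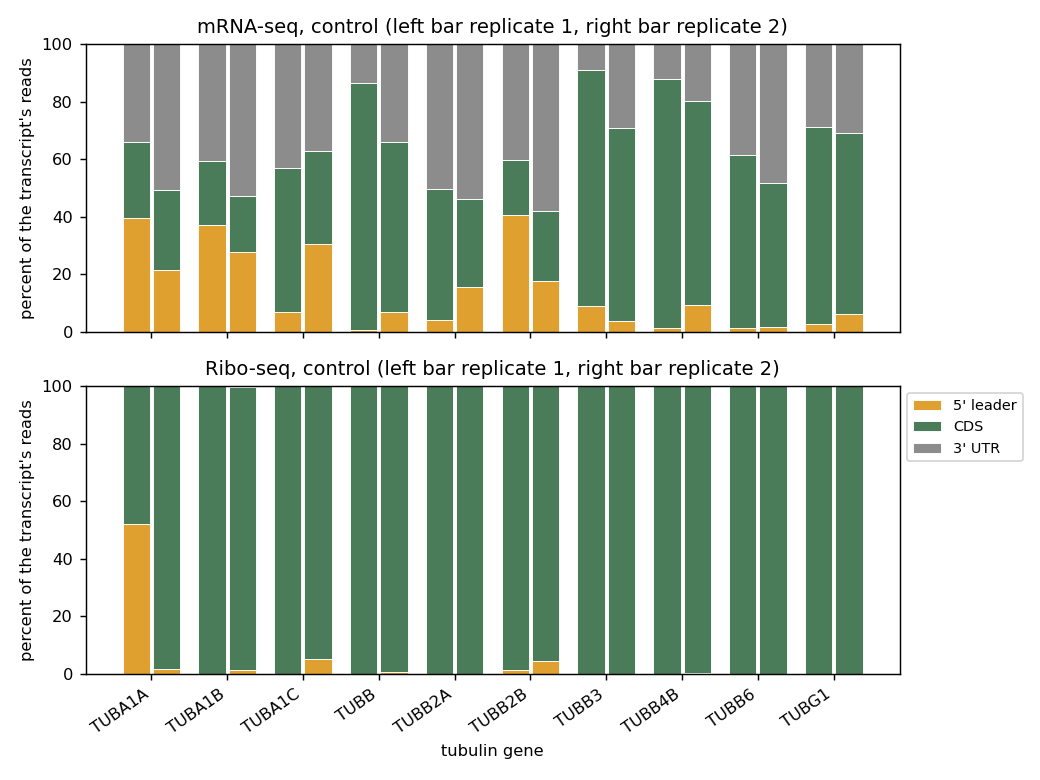
Percent of each tubulin transcript's reads (y axis) in the 5′ leader, CDS and 3′ UTR in control, for mRNA-seq (top) and ribo-seq (bottom), with a pair of bars per gene for replicates 1 and 2. The mRNA-seq CDS share runs from 19.1% (TUBB2B, replicate 1) to 86.5% (TUBB4B, replicate 1), whereas ribo-seq reads lie almost wholly in the CDS except for TUBA1A in replicate 1.

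Some of the genes lie in groups in the genome (GRCh38.p14, RefSeq), while the deposited counts themselves are per transcript and carry no coordinates. TUBA1A, TUBA1B and TUBA1C are on chromosome 12, TUBB2A and TUBB2B are on chromosome 6 on the minus strand, TUBB is on the plus strand of the same chromosome, TUBB3 is on 16, TUBB4B on 9, TUBB6 on 18 and TUBG1 on 17. RefSeq promoter sequences matched all 10 genes, with 15 annotated starts. The windows from 45 to 16 bases before the start are printed for TUBB (its first start), TUBB2A and TUBB2B. Relative to the bulk of mRNAs, TUBB RNA and TUBB2A ribosome occupancy rose. TUBB2B is the close paralog and chromosomal neighbour of TUBB2A, and its occupancy did not pass the test. TUBB has 2 annotated starts, and which of them belongs to the counted transcript was not determined. Capitals mark the letters TATAA, searched on the strand of the gene only.
TUBB, chr6:30720307-30720336, plus strand: ccgcccagcctgctttccctccgcgccctc
TUBB2A, chr6:3157560-3157589, minus strand: gggcgggtccccgggTATAAaagaccgagc
TUBB2B, chr6:3227669-3227698, minus strand: ccccaccctccttgcataaaagccggagcc

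The letters were present in this window in 4 of the 15 tubulin starts (26.7%), 1 each of TUBB2A, TUBB4B, TUBA1C and TUBB3, and in 4.09% of the windows of 35116 annotated promoters. TUBA1C and TUBB3 also have annotated starts without the letters, and which start belongs to their counted transcript was not determined. These counts describe the reference sequence, and no promoter activity was measured.

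The first question was whether the amount of tubulin mRNA changed after arsenite. TUBB mRNA rose relative to the bulk of mRNAs, and the other 9 tubulin genes did not pass the test. The log2 changes of all 10 were positive, with a median of 0.15 and a range of 0.02 to 0.56. Over all 12600 genes tested the median was -0.01, and 47.8% of genes had a positive change. The test was edgeR's quasi-likelihood test on reads over the whole transcript, with the replicate as a block and Benjamini-Hochberg adjustment over all genes. It called 5.75% of all genes changed at an adjusted p of 0.05, and 3.75% higher, so that 1 of 10 tubulin genes is a count near this background. At an unadjusted p of 0.05, 8 of the 10 genes passed, against 18.4% of all genes. That number depended on the fit. It was 1 of 10 with DESeq2, where 373 genes passed in all. Without the replicate block it was 0 of 10, where 28 genes passed in all. It was 7 with CDS reads alone and 8 under the other alternatives. Within replicates, 10 of 10 genes were higher in arsenite in replicate 1 and 9 of 10 in replicate 2. Of all genes tested, 30.0% were higher in both replicates.

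TUBB encodes the class I β-tubulin that is found in nearly all tissues. Its mRNA was at 1351 and 1653 TMM-normalized cpm in control (replicates 1 and 2) and at 1568 and 1820 cpm in arsenite. The value was higher in arsenite in each replicate, although the groups overlapped, since control replicate 2 lay above arsenite replicate 1. The log2 change was 0.17 ± 0.05 (SE), a 1.13-fold rise, with an adjusted p of 0.0104 in edgeR's test. The log2 changes within replicates were 0.21 and 0.14. TUBB was called under 4 of 7 alternatives, with adjusted p from 0.00519 to 1.00. The call was lost in DESeq2 (adjusted p = 0.0951), when the mRNA-seq reads were restricted to the CDS (0.135) and without the replicate block (1.00), a fit under which edgeR called 0 of 12600 genes, with 28 at an unadjusted p of 0.05.

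The other β-tubulin mRNAs had log2 changes of 0.02 to 0.56, and none passed the test. TUBB3, the class III β-tubulin known as a neuronal marker, had the largest of the 10 changes. Its mRNA was at 2.83 and 3.94 cpm in control and at 4.91 and 5.67 cpm in arsenite, so that the groups did not overlap. These values rest on 11, 79, 19 and 127 reads in the same order, and the log2 change was 0.56 ± 0.20 (SE) with an adjusted p of 0.0662 in edgeR's test. TUBB2A and TUBB2B, the class II pair, had changes of 0.28 ± 0.10 and 0.18 ± 0.08, with adjusted p of 0.0813 and 0.189. TUBB4B, a widely used class IV isotype, was at 176 and 192 cpm in control and at 213 and 207 cpm in arsenite. The arsenite values were the higher ones without overlap, and the log2 change of 0.16 ± 0.05 (SE) had an adjusted p of 0.0504 in edgeR's test. TUBB6, a class V isotype, was the least changed of the 10, at 36.6 and 43.7 cpm in control and 44.2 and 42.4 cpm in arsenite, and was the 1 gene that was lower in arsenite in replicate 2.

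Among the α-tubulins, the log2 changes were 0.04 ± 0.09 (SE) for TUBA1A, the isotype prominent in developing neurons, 0.13 ± 0.05 for TUBA1B and 0.15 ± 0.06 for TUBA1C, with adjusted p of 0.857, 0.161 and 0.134 in edgeR's test. The replicates stood further apart than the treatments. TUBA1B mRNA was at 179 and 556 cpm in control and at 187 and 617 cpm in arsenite, so replicate 2 was the higher one in both treatments. TUBG1, the γ-tubulin, was at 91.4 and 81.3 cpm in control and 104 and 88.8 cpm in arsenite. Its log2 change of 0.14 ± 0.06 did not pass the test (adjusted p = 0.170). When the 10 genes are ordered by RNA change, the ranges of 1 SE of all 9 neighbouring pairs overlap.

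**Figure D2:**
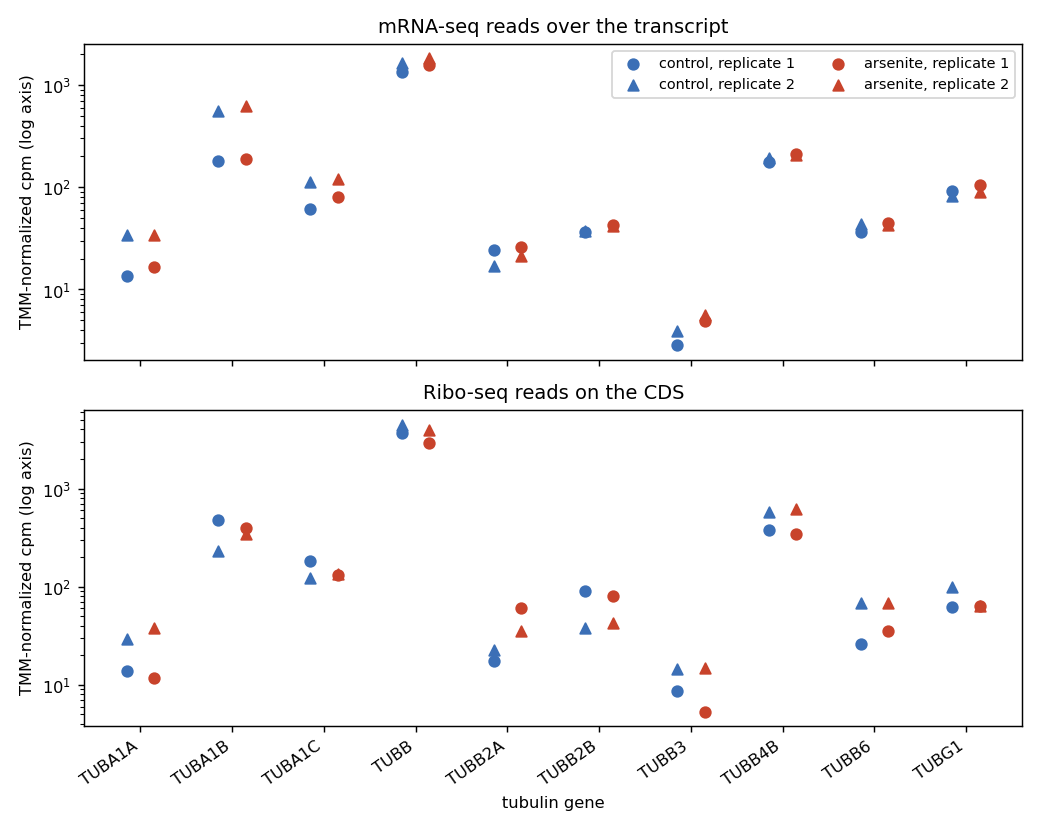
TMM-normalized cpm (log axis) of each tubulin gene in the 8 libraries, for mRNA-seq reads over the transcript (top) and ribo-seq reads on the CDS (bottom), with blue for control, red for arsenite, circles for replicate 1 and triangles for replicate 2. TUBB2A ribo-seq lies at 17.3 and 22.4 in control and at 60.7 and 34.9 in arsenite, and TUBA1B mRNA-seq lies higher in replicate 2 than in replicate 1 in both treatments.

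The second question was whether ribosomes on tubulin coding sequences changed. Ribosome occupancy is the number of ribo-seq reads on the CDS, here too set against the bulk of mRNAs, which leaves the general decrease of translation under arsenite out of the values. TUBB2A occupancy rose and no other tubulin gene passed the test. The log2 changes of the other 9 lay between -0.35 (TUBG1) and 0.24 (TUBA1A), and the median of all 10 was -0.01, against -0.00 over all 10291 genes tested. In edgeR's test 2.81% of all genes were called, and 1.46% were called higher, beside 1 of 10 tubulin genes.

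TUBB2A CDS reads numbered 30 in replicate 1 and 172 in replicate 2 in control, and 57 and 114 in arsenite. Normalized, these were 17.3 and 22.4 cpm in control and 60.7 and 34.9 cpm in arsenite. Both arsenite values lay above both control values. The log2 change was 1.09 ± 0.28 (SE), with an adjusted p of 0.0386 in edgeR's test. This is a 2.12-fold rise relative to the bulk of mRNAs, and absolute occupancy was not measured. Its size differed between the replicates, at 1.80 in replicate 1, where counts were low, and 0.65 in replicate 2. TUBB2A was called under 5 of the 6 alternatives that gave an adjusted p, with values from 0.00273 to 1.00, the last being the fit without the replicate block (0 of 10291 genes called, 150 at an unadjusted p of 0.05). DESeq2 gave no adjusted p for this gene.

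TUBB2B, by contrast, was at 90.1 and 37.9 cpm in control and 79.9 and 42.3 cpm in arsenite. The replicates moved in opposite directions by small amounts, and the log2 change was 0.01 ± 0.21 (SE; adjusted p = 0.991 in edgeR's test). The difference between the changes of TUBB2A and TUBB2B was not tested. TUBB occupancy was at 3662 and 4491 cpm in control and 2931 and 3961 cpm in arsenite. It was lower in arsenite in each replicate with overlapping groups, and the log2 change of -0.25 ± 0.18 did not pass the test (adjusted p = 0.506). TUBG1 was at 62.4 and 98.2 cpm in control and 63.9 and 64.1 cpm in arsenite, so that its change of -0.35 ± 0.22 came from replicate 2.

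The α-tubulins did not move together between replicates. TUBA1B occupancy went from 473 to 400.5 cpm in replicate 1 and from 233 to 343 cpm in replicate 2. TUBA1C went from 183 to 132 cpm and from 122 to 134 cpm, and TUBA1A from 13.9 to 11.7 cpm and from 29.1 to 38.3 cpm. All 3 were lower with arsenite in replicate 1 and higher in replicate 2, and their fitted log2 changes of 0.17 ± 0.20, -0.14 ± 0.20 and 0.24 ± 0.29 (SE) had adjusted p of 0.707, 0.759 and 0.720 in edgeR's test. TUBB3 rested on 15, 111, 5 and 48 CDS reads, and its change of -0.12 ± 0.34 has the largest error of the 10.

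Summed over the 10 genes, tubulins made up 0.192% of the replicate 1 mRNA-seq reads in control and 0.220% after arsenite, and in replicate 2 they made up 0.282% and 0.309%. Of the CDS ribo-seq reads they took 0.449% in control replicate 1 (95% Wilson interval 0.440 to 0.459) and 0.375% in arsenite replicate 1 (0.363 to 0.387). In replicate 2 the shares were 0.609% (0.603 to 0.614) and 0.583% (0.575 to 0.592). The mRNA share was thus higher and the ribo-seq share lower in arsenite in each replicate, by more than counting error, which is all the intervals cover. The replicates lay further apart than the treatments, and an exact permutation test of 2 libraries against 2 cannot go below p = 0.333 (two-sided). These sums are mostly TUBB, which held 60.5% to 68.5% of the family's mRNA-seq reads and 72.2% to 78.8% of its CDS ribo-seq reads, as shares of reads with no correction for length. The α-tubulin share of CDS reads went from 0.0613% to 0.0502% in replicate 1 and from 0.0411% to 0.0566% in replicate 2, and the β-tubulin share from 0.382% to 0.319% and from 0.557% to 0.520%.

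Translation efficiency (TE), the ratio of CDS ribo-seq reads to mRNA-seq reads, joins both measures and was tested as the interaction of assay and treatment over the 8 libraries. None of the 10 tubulin genes passed in edgeR's test at an adjusted p of 0.05, where 2.15% of all 10273 genes did. At an unadjusted p of 0.05, 3 passed (TUBB, TUBG1 and TUBB2A), against 21.3% of all genes. DESeq2 called 0 of the 7 genes to which it gave an adjusted p, which leaves out TUBA1A, TUBB2A and TUBB3, and 2 of the 10 had an unadjusted p under 0.05. The median log2 change was -0.18, against -0.01 over all genes, and 6 of 10 were negative. For TUBB, TE changed by -0.43 ± 0.13 (SE; adjusted p = 0.112), with -0.54 in replicate 1 and -0.32 in replicate 2. For TUBB2A the value was 0.67 ± 0.28 (adjusted p = 0.204), with 1.70 and 0.31. For TUBG1 it was -0.58 ± 0.20 (adjusted p = 0.137) and for TUBB3 -0.63 ± 0.31 (adjusted p = 0.274), and both were lower in each replicate. TUBA1A, TUBA1B, TUBA1C and TUBB2B changed sign between the replicates.

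**Figure D3:**
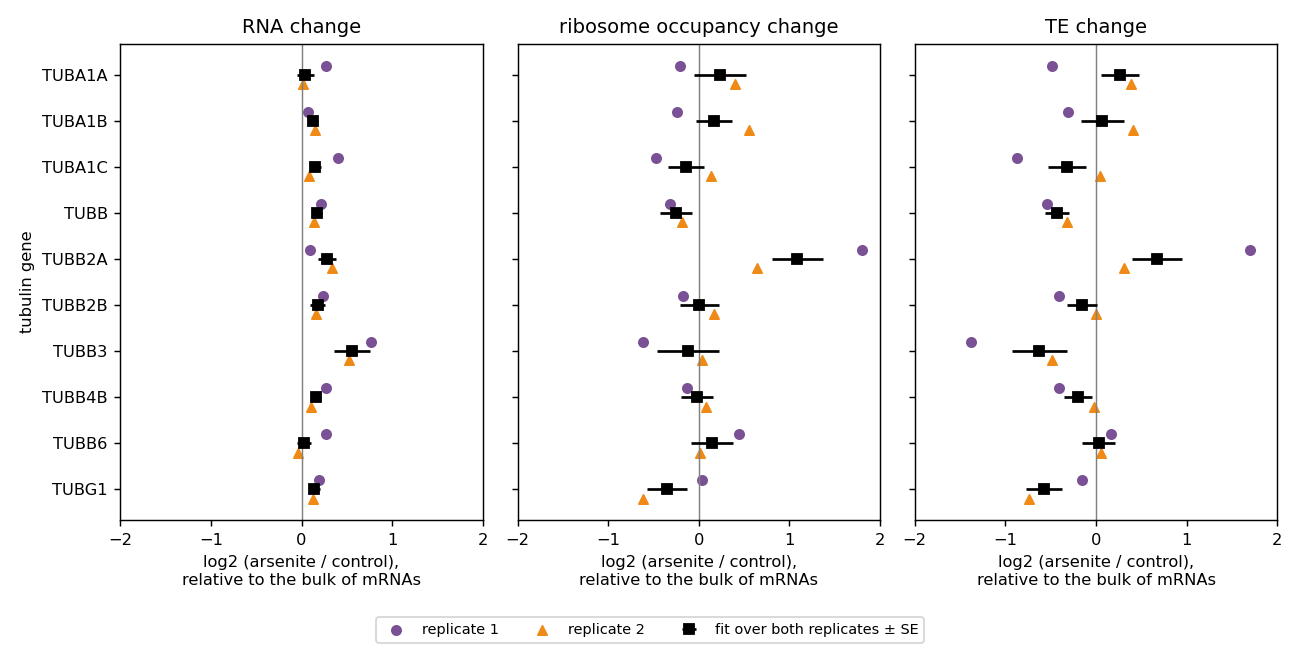
Log2 change of arsenite over control (x axes) in RNA level, ribosome occupancy and TE for the 10 tubulin genes, with black squares for the fit over both replicates, bars of 1 SE, purple circles for replicate 1 and orange triangles for replicate 2. RNA changes lie between 0.02 and 0.56, while occupancy and TE scatter on both sides of 0 with TUBB2A farthest to the right.

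A Z-score of each change among 300 genes of similar read depth within a replicate, modelled on the study's measure, was computed as a description. It differs from the study's in that both replicates were scaled by total mapped reads, where the paper used spike-in reads for replicate 2. The paper also chose transcripts by ribo-seq read density and not by read number. None of the tubulin genes reached the threshold of 4 in either replicate. The RNA Z-scores lay between 0.33 (TUBA1B) and 2.38 (TUBA1C) in replicate 1, and between -0.21 (TUBB6) and 2.31 (TUBB2A) in replicate 2. TUBB2A had occupancy Z-scores of 2.80 and 1.33, the highest of the 10 in replicate 1, and TE Z-scores of 2.62 and 0.60. TUBG1 had the lowest occupancy and TE Z-scores in replicate 2, at -1.98 and -2.28. Over all genes, 9 and 24 genes were past 4 in RNA in replicates 1 and 2, 4 and 14 in occupancy and 6 and 9 in TE.

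Baseline TE asks how densely the tubulin coding sequences were occupied in unstressed cells relative to their own mRNA. CDS reads were used in both assays, so that CDS length enters both sides of the ratio. Whether the stretches to which reads align uniquely were the same in both assays was not tested. Most tubulin mRNAs lay above the bulk, and TUBG1 lay close to it. All 10 log2 values were positive, with a median of 1.42 against 0.01 over all 10611 genes tested. In edgeR's test 7 of 10 were called higher, where 22.0% of all genes were called and 8.39% were called higher. TUBB2B had the highest value at 2.36 ± 0.42 (SE; adjusted p = 0.00242), a 5.13-fold excess, which exceeded 99.7% of the genes tested. TUBA1B followed at 1.91 ± 0.52 (0.0203), TUBB3 at 1.82 ± 0.44 (0.0118), TUBA1C at 1.75 ± 0.34 (0.00388), TUBB at 1.54 ± 0.33 (0.00651), TUBB4B at 1.30 ± 0.31 (0.0104) and TUBA1A at 1.29 ± 0.38 (0.0273). TUBB2A at 1.07 ± 0.39 (0.0676), TUBB6 at 0.62 ± 0.35 (0.216) and TUBG1 at 0.09 ± 0.31 (0.858) did not pass. In this order the ranges of 1 SE overlapped in all 9 neighbouring pairs. Higher baseline values were also seen in some other cytoskeletal lists. Among actin and intermediate filament genes, 8 of 13 were called higher (median 1.26). Of 22 microtubule-associated proteins and stathmins, 7 were called higher and 2 lower (median 0.79). Of the other tubulin genes 4 were tested and 1 was called higher, with values from -0.93 to 2.59 (median 0.72). For folding cofactors and autoregulation, 0 of 10 genes were called (median 0.42). Of 14 genes of the γ-tubulin ring complex and its recruitment factors, 0 were called higher and 2 lower (median -0.16). Of 20 tubulin-modifying and severing enzymes, 0 were called higher and 6 lower (median -0.48).

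**Figure D4:**
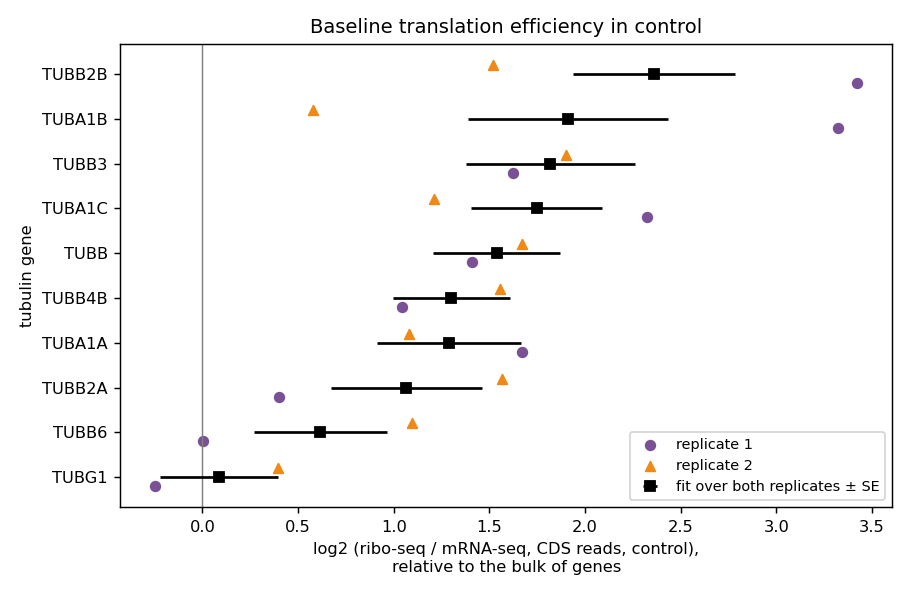
Log2 ratio of ribo-seq to mRNA-seq CDS reads in control, relative to the bulk of genes (x axis), for the 10 tubulin genes in order of the fitted value, with black squares for the fit, bars of 1 SE, circles for replicate 1 and triangles for replicate 2. The values run from 0.09 for TUBG1 to 2.36 for TUBB2B, and the replicates of TUBA1B lie at 3.32 and 0.58.

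The replicates differed in these values, more for some genes than for others. TUBB was at 1.41 in replicate 1 and 1.67 in replicate 2, TUBB4B at 1.04 and 1.56 and TUBB3 at 1.62 and 1.90, and these β-tubulins lay well above 0 in both. TUBA1B was at 3.32 and 0.58 and TUBB2B at 3.42 and 1.52. In control replicate 1 they had 154 and 27 mRNA-seq reads on the CDS, beside 818 and 156 ribo-seq reads, and in control replicate 2 they had 2156 and 182, beside 1792 and 291. TUBB3, whose replicates lay close, had only 9 and 53 mRNA-seq reads on the CDS. With mRNA-seq reads over the whole transcript in place of the CDS, 5 of 10 genes were called and the median fell to 0.81. TUBA1A (0.30 ± 0.42, adjusted p = 0.604) and TUBA1B (0.50 ± 0.38, adjusted p = 0.316) lost the call. TUBB2B kept it at 1.08 ± 0.39 (adjusted p = 0.0211 in edgeR's test). It then lay below TUBB3 (2.205), TUBB (1.87), TUBB4B (1.78) and TUBA1C (1.27), so its highest place held for CDS reads only. TUBA1A and TUBA1B also lost the call in DESeq2 (adjusted p = 0.0561 and 0.240). Without the replicate block 2 genes were called, TUBA1C and TUBB2B. Over these alternatives the adjusted p ranged from 0.00357 to 0.604 for TUBA1A and from 1.08e-06 to 0.316 for TUBA1B.

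Footprints outside the CDS were few for most of the genes. Over all transcripts used, the 5′ leader held 0.392% and 0.795% of control ribo-seq reads and 0.490% and 1.52% of those in arsenite. In replicate 1, TUBB leaders had 1 of 6340 control reads and 0 of 2752 arsenite reads. In replicate 2 they had 215 of 34738 in control (0.619%, 95% Wilson interval 0.542 to 0.707) and 180 of 13130 in arsenite (1.37%, 1.19 to 1.58). TUBA1B leaders had 28 of 1823 reads (1.54%, 1.06 to 2.21) in control replicate 2 and 53 of 1186 (4.47%, 3.43 to 5.80) in arsenite replicate 2, and TUBA1C leaders 50 of 992 (5.04%, 3.84 to 6.58) and 50 of 489 (10.2%, 7.84 to 13.2). In replicate 1, TUBA1C had 0 leader reads in both treatments and TUBA1B had 1 of 819 and 0 of 376, so that the higher shares in arsenite come from replicate 2, in which the share over all transcripts was also higher. In control mRNA-seq, TUBA1C leaders had 16 of 237 reads in replicate 1 and 692 of 2264 in replicate 2. TUBB leaders had 35 of 5248 and 2338 of 33175 there, and TUBA1B leaders 257 of 694 and 3106 of 11153. For TUBA1C and TUBB, few mRNA-seq reads thus lay in the leader in replicate 1. TUBB2B leaders had 2 of 158 reads in control and 1 of 76 in arsenite in replicate 1. In replicate 2 they had 14 of 305 (4.59%) and 7 of 146 (4.795%). TUBB4B leaders had 0 of 647 reads in control and 2 of 322 in arsenite in replicate 1. In replicate 2 they had 14 of 4495 (0.31%) and 29 of 2045 (1.42%). TUBA1A stood apart in control replicate 1, with 26 of its 50 ribo-seq reads in the leader, against 4 of 228 in control replicate 2. In the 3′ UTR, TUBB had 4 replicate 2 reads in control and 28 after arsenite, TUBA1B had 3 and 13, and every other tubulin gene had at most 2 in any library. The TUBB share was 0.0115% in control and 0.213% in arsenite in that replicate, below the 0.204% and 0.755% over all transcripts used. The TUBA1B share was 0.165% in control (95% Wilson interval 0.056 to 0.483) and 1.10% in arsenite (0.642 to 1.87). Both of these intervals include the share over all transcripts used.

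The wider microtubule system was described through 6 lists of genes, each set beside 5.75% of all genes called in RNA, 2.81% in occupancy and 2.15% in TE by edgeR's test. Of the 12 other tubulin genes, 6 had enough reads for the RNA test and 4 for occupancy and TE, and 0 passed in edgeR's test. The most read of them, TUBB4A, a brain isotype, had log2 changes of 0.17 ± 0.11 (SE) in RNA and -0.19 ± 0.23 in occupancy, with 62 and 392 CDS reads in control and 30 and 145 in arsenite. TUBE1, the ε-tubulin of centrioles, had an RNA change of -0.01 ± 0.07 and an occupancy change of 0.41 ± 0.26. TUBA3C, TUBA3D and TUBAL3 had 0 mRNA-seq reads and 0 CDS ribo-seq reads in all 8 libraries, where TUBA3C and TUBA3D are near-identical copies and reads shared between them were not counted.

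Of the 10 genes for tubulin folding cofactors and autoregulation, all were tested and 0 passed in RNA, occupancy or TE. Their most read members were TBCD, a cofactor that handles β-tubulin, at 0.11 ± 0.06 (SE) in RNA and 0.35 ± 0.18 in occupancy, and TBCA, which holds free β-tubulin, at -0.09 ± 0.05 and -0.29 ± 0.18. Among 19 tested genes for enzymes that modify or sever tubulin, ribosome occupancy of AGTPBP1, a deglutamylase that removes glutamates from tubulin tails, fell. Its raw CDS reads went from 101 to 26 in replicate 1 and from 408 to 100 in replicate 2. CDS ribo-seq reads of all genes also went down, from 1891357 to 1016863 and from 7197534 to 2974515. Relative to the bulk of mRNAs, the log2 change of AGTPBP1 was -0.90 ± 0.24 (adjusted p = 0.0424 in edgeR's test). None of the 20 tested in RNA and none of the 19 tested in TE passed. Of the 14 genes of the γ-tubulin ring complex and its recruitment factors, PCNT, encoding the centrosome scaffold pericentrin, rose in TE. This rise, too, is relative to the bulk of mRNAs. PCNT had 222 and 665 CDS reads in control and 181 and 465 in arsenite. Its TE change was 0.77 ± 0.15 (adjusted p = 0.0374 in edgeR's test), with 0.68 in replicate 1 and 0.84 in replicate 2. No gene of this list passed in RNA or occupancy.

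Microtubule-associated proteins and stathmins held 4 of 23 tested genes that rose in RNA and none that fell. TPX2, a spindle assembly factor, went from 606 to 971 reads in replicate 1 and from 2754 to 4619 in replicate 2, a log2 change of 0.62 ± 0.05 (SE; adjusted p = 2.90e-27 in edgeR's test). CKAP5, a microtubule polymerase, rose by 0.32 ± 0.05, MAP4, which binds along microtubules, by 0.27 ± 0.05, and CLASP1, which stabilizes plus ends, by 0.23 ± 0.06. No gene of this list passed in occupancy or TE. In the list of actin and intermediate filament genes, 3 of 13 rose in RNA and 1 fell. VIM rose by 0.29 ± 0.05, ACTB, a cytoplasmic actin, by 0.22 ± 0.05 and LMNA, encoding lamins A and C, by 0.31 ± 0.08, while TMSB10, a peptide that sequesters actin monomers, fell by 0.22. The replicates gave similar values for VIM (0.32 and 0.28) and ACTB (0.22 and 0.22), but LMNA was at 0.01 in replicate 1 and 0.41 in replicate 2. None of these 13 genes passed in occupancy or TE. All of the calls in these lists were lost without the replicate block. Counting that fit, and a missing adjusted p as no call, TPX2, CKAP5 and VIM were not called in 1 of 7 alternatives, MAP4 and AGTPBP1 in 2 of 7, CLASP1, ACTB, TMSB10 and LMNA in 3 of 7, and PCNT in 3 of 9.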

How the data were processed

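The authors trimmed adapters with Cutadapt, set aside spike-in and rRNA reads, aligned the rest to RefSeq transcripts with Bowtie 1.0.0 and discarded reads that aligned to more than 1 gene. Ribo-seq reads were assigned to the inferred A-site. The deposited values are raw read counts for 47087 transcripts, of which 35851 are coding and have their 5′ leader, CDS and 3′ UTR counted separately. Transcript lengths were not used, and the transcript with most CDS ribo-seq reads over both controls represented each gene.

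Counts were fitted with edgeR 4.0.16 (R 4.3.3; quasi-likelihood test, TMM, Benjamini-Hochberg adjustment over all genes, threshold 0.05, mean of at least 10 counts). After TMM scaling a change is measured against the bulk of mRNAs. Each SE is the absolute log2 value over √F, with F from the test. A prior count of 0.5 was added for log2 changes of single replicates. The 2 biological replicates differed in adapters and sequencing, so the replicate was a block. Libraries of the same replicate deviated from the group means together, with a correlation of 0.710 over 12600 genes in mRNA-seq and 0.689 over 10291 in ribo-seq. Z-scores were computed among 300 genes of like depth with at least 2 normalized reads, and 4 was the threshold. Shares have 95% Wilson intervals. The fits were run on simulated counts with 200 genes changed by an absolute log2 of 2. These genes had fitted means of at least 50 reads, and all genes were given the same dispersion. Each fit recovered 191 to 200 of them, with 4 to 12 false calls. Smaller changes, such as those called for TUBB in RNA and TUBB2A in occupancy, were not simulated.

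The members and the gene lists were chosen with earlier results of these data known. Named are the 10 members and, from each list, up to 5 genes per comparison with the lowest adjusted p among those past the threshold in RNA, occupancy or TE, otherwise the 2 with most control CDS ribo-seq reads. The fits were repeated with DESeq2 1.42.0, upper-quartile factors, other filters, no replicate block, another transcript, other read regions, TMM within assay, other Z-score settings and each replicate alone. Python 3.11.15 with pandas 2.3.3 and matplotlib 3.10.9 was used for summaries and figures.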

Additional observations from a re-analysis of the deposited data

How the results depend on the processing

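Of 284 values of single tubulin genes under alternatives with a test, 260 kept their direction and their side of the threshold, 13 lost the call, 4 gained it and 7 changed sign. Only TUBB in RNA, TUBB2A in occupancy and the 7 genes called in baseline TE had a call to lose. TUBB kept it in RNA under 4 of 7 alternatives and TUBB2A in occupancy under 5 of 6. In baseline TE it was kept under 4 of 7 for TUBA1A and TUBA1B and 5 of 6 for TUBB3. For TUBB and TUBB4B it was kept there under 6 of 7, and for TUBA1C and TUBB2B under all 7. None of the sign changes was of a called value: in occupancy TUBA1A (0.24 became -0.0565) and TUBB2B (-0.00405) with reads over the whole transcript, TUBB2B (-0.00889) without a filter, and, without the replicate block, TUBB2B (-0.0714), TUBB4B (0.00417) and TUBA1B in TE (-0.0572), and TUBG1 in baseline TE (-0.0177) with a mean of at least 50 counts. In RNA, 1 gene was called, which became 0 with DESeq2 (of the 5 genes to which it gave an adjusted p), 0 with CDS reads alone, 0 without the replicate block, 2 with the transcript with most mRNA-seq reads (TUBB4B added) and 3 with a mean of at least 50 counts (TUBB4B and TUBB3 added). All 10 RNA changes were positive under each of the 7 alternatives. In occupancy, 1 call became 0 with DESeq2, which gave TUBB2A no adjusted p, and 0 without the replicate block. In TE, 0 genes were called under each of the 9 alternatives, among 10 genes with an adjusted p in 7 of them, 7 with DESeq2 and 9 with a mean of at least 50 counts, a filter that TUBB3 did not pass. The 7 calls in baseline TE became 2 without the replicate block, and their median of 1.42 became 1.20 with a mean of at least 50 counts and 0.81 with mRNA-seq reads over the whole transcript. With either replicate alone, a value with no test, the median log2 was 0.13 to 0.26 in RNA, -0.19 to 0.11 in occupancy, -0.41 to 0.02 in TE and 1.37 to 1.51 in baseline TE. Over all genes, DESeq2 called 87 of the 3317 genes with an adjusted p in RNA, 54 of 3109 in occupancy, 95 of 6289 in TE and 1737 of 9788 in baseline TE, against 725 of 12600, 289 of 10291, 221 of 10273 and 2336 of 10611 with edgeR. No tubulin gene passed a Z-score of 4 in replicate 2 with bins of 100 genes or a minimum of 20 reads. Depth limits TUBB3, TUBB2A and TUBA1A most, which had 15, 30 and 24 CDS ribo-seq reads in control replicate 1.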

Other observations

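Tubulin pseudogene transcripts were also counted and belong to no comparison above. TUBBP5, a β-tubulin pseudogene, had 29 and 159 mRNA-seq reads in control (replicates 1 and 2) and 19 and 174 in arsenite, with 5 and 21 ribo-seq reads in control and 1 and 6 in arsenite. TUBA3FP had 1 and 23 mRNA-seq reads in control and 4 and 21 in arsenite, and its 2 ribo-seq reads were both in arsenite replicate 2. Since reads shared with a gene were discarded, these counts cover only sequence that sets the pseudogenes apart.

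Among the less used tubulin genes, TUBA4A, an α-tubulin abundant in muscle and platelets, had 4 and 70 CDS ribo-seq reads in control and 3 and 41 in arsenite, TUBD1, the δ-tubulin of centrioles, had 53 and 131 and then 32 and 61, and TUBG2, the second γ-tubulin gene, had 3 and 6 and then 0 and 7.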
